A study of Mus musculus with 12 samples.

Results

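The genes described here are the Cdh genes and the non-clustered Pcdh genes of the developing mouse cortex. They were taken by symbol, as Cdh followed by digits or Pcdh followed by digits and at most 1 further letter. This leaves out the clustered Pcdha, Pcdhb and Pcdhg genes. These genes were chosen with earlier results of these data known. The rule found 34 genes, 22 Cdh and 12 Pcdh, among the 23513 genes of the count tables. They are not all classical cadherins. By structure, 4 were type I classical cadherins, 13 were type II, 1 (Cdh13) was GPI-anchored and 4 were other cadherins (Cdh16, Cdh17, Cdh23 and Cdh26), beside 5 delta-1, 5 delta-2 and 2 other protocadherins (Pcdh12 and Pcdh15).

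Nuclei came from cortices of C57BL/6J mouse embryos at embryonic day 14, whose dams had received daily intraperitoneal injections of ethanol (EtOH) or saline. Single nucleus RNA sequencing (snRNAseq) counts RNA molecules in droplets by their unique molecular identifiers (UMIs), with 1 library per embryo. There were 5 saline embryos (S1-1, S1-2, S2-1, S2-2, S2-4) and 6 EtOH embryos (E1-1, E1-2, E2-1, E2-2, E2-3, E2-4), named from the sample titles. The titles do not say dam or litter. S1, S2, E1 and E2 were taken as the dams, since the study used 2 dams per condition. The S1 and E1 litters formed batch 1 and the S2 and E2 litters batch 2. Each treatment thus rested on 2 dams, and p-values that take littermates as independent may be too small. Males and females were combined in the study, and sex entered none of the fits.

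Cadherins are calcium-dependent adhesion molecules that sit in the cell membrane and bind mostly to the same cadherin on a neighbouring cell. Classical cadherins are tied to actin inside the cell through catenins, and in the embryonic cortex N-cadherin (Cdh2) holds the junctions between radial glial cells (RGCs) at the ventricular surface. Type II cadherins are expressed in combinations that differ between brain areas, layers and nuclei, and delta protocadherins adhere weakly, signal to the actin cytoskeleton and take part in neuronal migration and axon outgrowth.

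Saline embryos had 44017566 to 83061737 UMIs and EtOH embryos 14078316 to 38034349. The median UMIs per nucleus were 6325 to 9051 in saline embryos and 4072 to 6911 in EtOH embryos, so depth moved with treatment. S2-4, with 6325, was the saline embryo nearest to the EtOH embryos in depth. The 34 genes took 0.947 to 1.07% of an embryo's UMIs under saline and 0.954 to 1.04% under EtOH. Of 50550 nuclei, 638 carried 1 of 314 barcodes found in more than 1 embryo, and 1 of these barcodes was found in 10 embryos. Cluster numbers and names were the study's. Hes1 was at 47.0 to 99.4 CPM (gene UMIs scaled to 1000000 UMIs of a cluster in an embryo) in the RGC clusters and at most 26.3 CPM elsewhere, Neurod2 was at 80.2 to 294 CPM in the projection neuron (PN) clusters, and Gad2 was at 608 to 1248 CPM in the interneuron (Int) clusters. Neurod2 was also at 92.5 and 106 CPM in the intermediate progenitor (IPC) clusters, and Gad2 was at 1172 CPM in Cluster 11 striatal interneurons.

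Levels are given as the mean CPM over the embryos with at least 10 nuclei in a cluster, with the SD between embryos. Since CPM was not divided by length, levels are compared between clusters for 1 gene and not between genes. The gene spans ranged from 4.54 kb to 1550 kb in GENCODE M21 on GRCm38, where all 34 were found. Of the 34 genes, 20 reached 100 CPM in at least 1 cluster and 0 were without any UMI. Clusters were made by the authors from these same nuclei, so levels by cluster are a description, with no test.

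**Figure D1:**
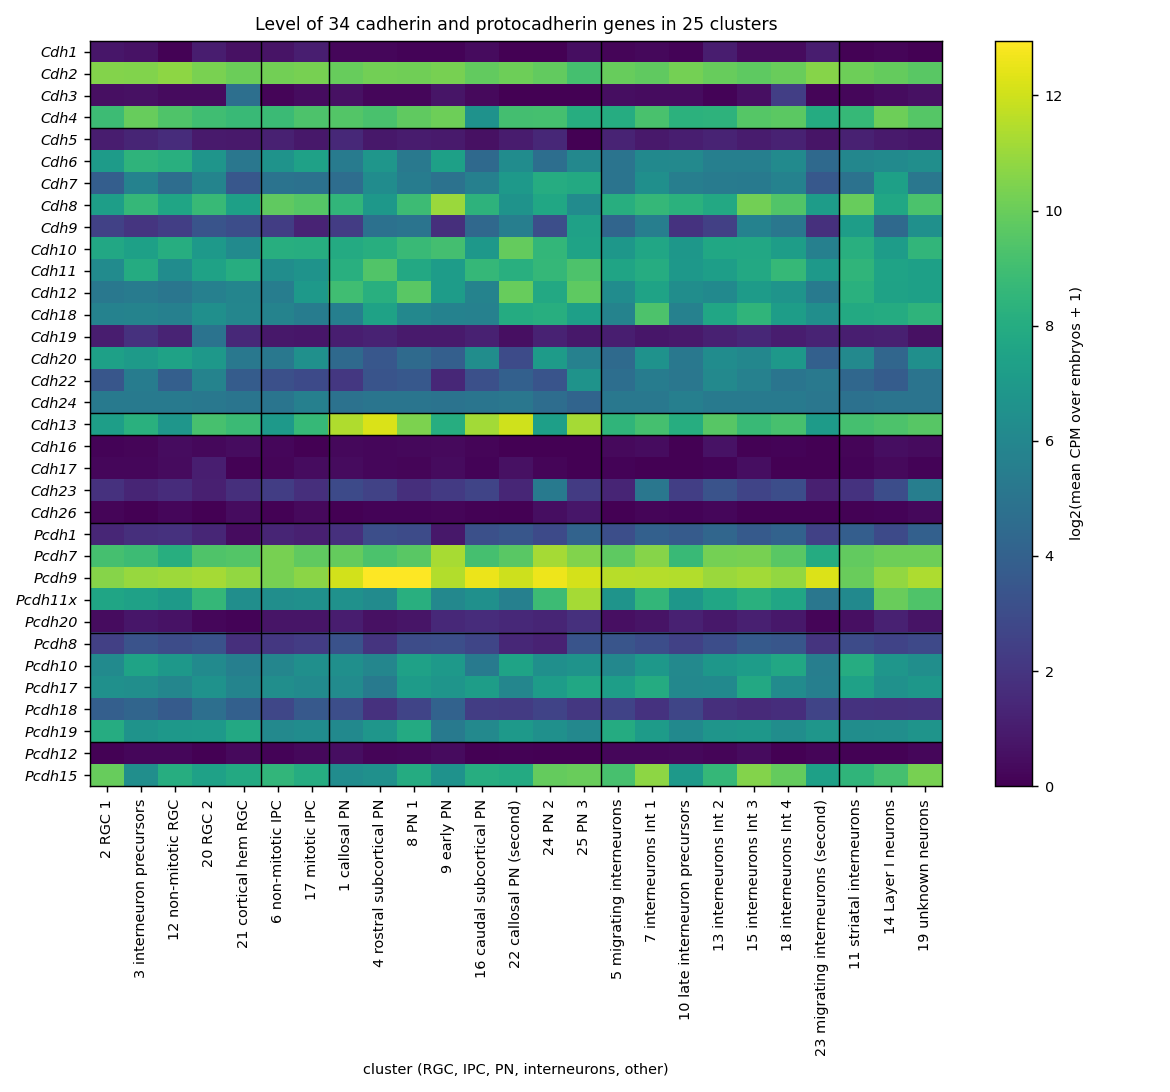
Colour gives log2(mean CPM over embryos + 1) of the 34 genes (rows, grouped by structure) in 25 clusters (columns, ordered as RGC, IPC, PN, interneurons and other), and black lines part the groups. Cdh2 is bright in every cluster, down to 567 CPM in Cluster 25, Cdh13 is bright mainly in PN clusters, and 7 genes stay under 5 CPM everywhere.

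Among type I classical cadherins, Cdh2 was present in every cluster. Its level was highest in Cluster 12 non-mitotic RGCs at 1719 ± 99.0 CPM (SD, n = 11) and lowest in Cluster 25 PN 3 at 567 ± 75.1 CPM (SD, n = 7). Cluster 23 migrating interneurons followed at 1557 ± 241 CPM (SD, n = 10), and Cluster 12 was above it in 8 of the 10 embryos with both. Cdh4, R-cadherin, was at 1107 ± 117 CPM (SD, n = 11) in Cluster 9 early PN and at 1094 ± 182 CPM (SD, n = 11) in Cluster 14 Layer I neurons, with Cluster 9 above in only 4 of 11 embryos, so these clusters did not differ beyond their spread. It was lowest in Cluster 16 caudal subcortical PN at 95.6 ± 28.5 CPM (SD, n = 11). Cdh3, P-cadherin, had 319 UMIs in all and was at 25.5 ± 28.1 CPM (SD, n = 10) in Cluster 21 cortical hem RGCs, against 4.28 CPM or less in each other cluster. Cdh1, E-cadherin of epithelia, had 148 UMIs in all and stayed at or below 1.119 CPM.

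The type II cadherins were highest in different clusters. Cdh8 was at 2053 ± 299 CPM (SD, n = 11) in Cluster 9 early PN, above its second level of 1183 ± 333 CPM in Cluster 15 Int 3 in 11 of 11 embryos. Cdh10 and Cdh12 were both highest in Cluster 22 callosal PN, at 960 ± 389 CPM and 967 ± 398 CPM (SD, n = 11). Cdh12 was at 33.1 ± 16.6 CPM in Cluster 12 non-mitotic RGCs. Cdh11 was at 684 ± 57.1 CPM (SD, n = 11) in Cluster 4 rostral subcortical PN and at 652 ± 244 CPM (SD, n = 7) in Cluster 25 PN 3, and Cluster 4 was above in 5 of 7 embryos. Cdh18 was at 634 ± 160 CPM (SD, n = 11) in Cluster 7 Int 1 and next at 355 ± 97.2 CPM in Cluster 15 Int 3, with Cluster 7 above in 10 of 11 embryos.

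Cdh6 and, over all embryos, Cdh20 were highest in progenitors. Cdh6 was at 345 ± 30.4 CPM in Cluster 3 interneuron precursors and 291 ± 61.0 CPM in Cluster 12 non-mitotic RGCs (SD, n = 11), with Cluster 3 above in 9 of 11 embryos. Cdh20 was at 178 ± 36.1 CPM in Cluster 12 and next, with 163 ± 38.9 CPM, in Cluster 2 RGC 1 (SD, n = 11), with Cluster 12 above in 7 of 11 embryos, and it was lowest at 6.66 ± 4.00 CPM in Cluster 22. In saline embryos alone Cdh20 was highest in Cluster 24 PN 2, at 174 ± 125 CPM against 166 ± 45.8 CPM in Cluster 12, a difference within the spread. Cdh7 was at 261 ± 112 CPM (SD, n = 10) in Cluster 24 PN 2 and at 232 ± 111 CPM (SD, n = 7) in Cluster 25 PN 3, with Cluster 24 above in 4 of 6 embryos. Cdh9 was at 168 ± 116 CPM in Cluster 25 (SD, n = 7) and at 148 ± 53.7 CPM in Cluster 11 striatal interneurons (SD, n = 11), with Cluster 25 above in 4 of 7 embryos. Cdh22 was at 101 ± 22.5 CPM in Cluster 25, above its second level of 68.4 ± 18.1 CPM in Cluster 13 Int 2 in 7 of 7 embryos, although in nuclei thinned to 2000 UMIs its top cluster was Cluster 20. Cdh24 varied little, from 17.04 ± 12.5 CPM (SD, n = 7) in Cluster 25 to 49.5 ± 11.1 CPM (SD, n = 11) in Cluster 17 mitotic IPCs. Cdh19, known from Schwann cell precursors, was at 29.2 ± 27.1 CPM (SD, n = 9) in Cluster 20 RGC 2 and at most 2.59 CPM elsewhere.

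Cdh13, T-cadherin, which is held to the membrane by a GPI anchor, was concentrated in PN. It was at 4762 ± 325 CPM (SD, n = 11) in Cluster 4 rostral subcortical PN and at 4094 ± 867 CPM (SD, n = 11) in Cluster 22 callosal PN, with Cluster 4 above in 9 of 11 embryos. Its level in PN clusters nonetheless went down to 157 CPM, and it was lowest in Cluster 12 non-mitotic RGCs at 112 ± 52.4 CPM (SD, n = 11). Cdh23, a tip-link protein of inner ear hair cells, was at 45.8 ± 22.9 CPM (SD, n = 11) in Cluster 19, whose type the study left unknown. Its second level was 39.2 ± 39.1 CPM (SD, n = 10) in Cluster 24 PN 2, with Cluster 19 above in 7 of 10 embryos. The gut and kidney cadherins Cdh16 and Cdh17 and Cdh26 stayed at or below 1.14 CPM.

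Among delta-1 protocadherins, Pcdh9 was at 7910 ± 544 CPM in Cluster 8 PN 1 and 7853 ± 601 CPM in Cluster 4 rostral subcortical PN (SD, n = 11). Cluster 8 was above Cluster 4 in 6 of 11 embryos, so this pair did not differ beyond its spread. Every PN cluster had at least 2797 CPM of Pcdh9, while the RGC clusters had 1572 to 2359 CPM, the Int clusters, which overlapped the PN clusters, 1817 to 4925 CPM and Cluster 11 striatal interneurons, the lowest, 1014 ± 263 CPM. Pcdh7 was at 2421 ± 245 CPM (SD, n = 11) in Cluster 9 early PN and 2368 ± 614 CPM (SD, n = 10) in Cluster 24 PN 2. Cluster 9 was above Cluster 24 in only 4 of 10 embryos. Pcdh11x was at 2372 ± 961 CPM (SD, n = 7) in Cluster 25 PN 3 and 1005 ± 275 CPM (SD, n = 11) in Cluster 14 Layer I neurons, against a median over clusters of 132 CPM. Pcdh1 and Pcdh20 were low, with top levels of 18.4 ± 3.79 CPM in Cluster 13 Int 2 and 2.41 ± 3.95 CPM in Cluster 25.

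The delta-2 protocadherins, which bind the WAVE complex that drives actin branching, included Pcdh19, mutated in a human epilepsy. Pcdh19 was at 260 ± 62.4 CPM in Cluster 2 RGC 1 and 247 ± 29.9 CPM in Cluster 5 migrating interneurons (SD, n = 11), with Cluster 2 above in 7 of 11 embryos. It was lowest in Cluster 9 early PN at 39.4 ± 19.8 CPM. Pcdh10 was at 256 ± 38.1 CPM in Cluster 11 striatal interneurons and 219 ± 37.9 CPM in Cluster 18 Int 4 (SD, n = 11), with Cluster 11 above in 6 of 11 embryos. Pcdh17 was at 247 ± 63.1 CPM in Cluster 7 Int 1 and 227 ± 42.6 CPM in Cluster 15 Int 3 (SD, n = 11). Pcdh18 was at 25.5 ± 14.7 CPM (SD, n = 9) in Cluster 20 RGC 2 and 12.1 to 25.5 CPM over the RGC clusters, beside 5.74 to 11.4 CPM over the IPC, 2.56 to 15.6 CPM over the PN and 1.95 to 5.46 CPM over the Int clusters, so the RGC and PN ranges overlapped. Pcdh8 stayed at or below 11.9 CPM. Of the other protocadherins, Pcdh15, a tip-link partner of Cdh23 in hair cells, was at 1696 ± 403 CPM in Cluster 7 Int 1 and 1513 ± 504 CPM in Cluster 15 Int 3 (SD, n = 11), and was lowest in Cluster 1 callosal PN at 76.8 ± 55.2 CPM. For Pcdh15, Cluster 7 was above Cluster 15 in 6 of 11 embryos.

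Cdh5 (VE-cadherin) and Pcdh12 are adhesion molecules of endothelial cells, which the study left out of these clusters. Cdh5 had 548 UMIs over all nuclei and reached 2.17 ± 1.66 CPM in Cluster 12, and Pcdh12 had 85 UMIs and reached 0.389 ± 0.509 CPM in Cluster 1 (SD, n = 11).

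Across the 25 clusters, the 20 genes at 100 CPM or more were compared with each other by Pearson's r of log2(CPM + 1). The clusters share embryos and libraries, so r is a description. Cdh12 and Cdh13 were most alike (r = 0.70), followed by Cdh11 and Cdh13 (r = 0.70), Cdh9 and Cdh18 (r = 0.68) and Pcdh15 and Pcdh17 (r = 0.63). Cdh2 was the least alike of the 19 others for 10 genes, from r = -0.51 with Cdh13 to r = -0.68 with Cdh9.

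The question of the study was how prenatal EtOH exposure alters gene expression in each cell type. In each cluster, UMIs were summed per embryo and EtOH was compared with saline by edgeR's quasi-likelihood test. A gene was called at a Benjamini-Hochberg adjusted p under 0.05 within the cluster and a fold of less than 0.8 or more than its inverse. Of 850 pairs of a gene and a cluster, 529 passed the filter on low counts, from 26 of the 34 genes. Cdh1, Cdh3, Cdh5, Cdh16, Cdh17, Cdh26, Pcdh12 and Pcdh20 passed it in 0 clusters.

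Of the 26 tested genes, 8 were called lower in EtOH embryos in at least 1 cluster. There were 11 calls, all lower: Cdh7, Pcdh7 and Pcdh19 in 2 clusters each, and Cdh10, Cdh11, Cdh20, Pcdh15 and Pcdh17 in 1 each. Thus 11 of 529 pairs (2.08%) were called lower, beside 0.35% of the 217253 pairs of all genes, and 0 were called higher by edgeR, beside 0.442% of all pairs. At an unadjusted p under 0.05, 95 pairs were lower and 14 higher, beside 7.83% and 9.54% of all pairs. DESeq2's Wald test called 34 pairs lower and 0 higher, beside 0.882% and 1.27% of all pairs it gave an adjusted p. The median log2 fold change of the 529 pairs was -0.13, and 66.7% of them were below 0, beside a median of 0.01 and 49.0% for all pairs. Pairs of the same gene in several clusters come from the same embryos, and genes are not independent replicates, so these shares have no test. The genes were also chosen with earlier results of these data known.

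**Figure D2:**
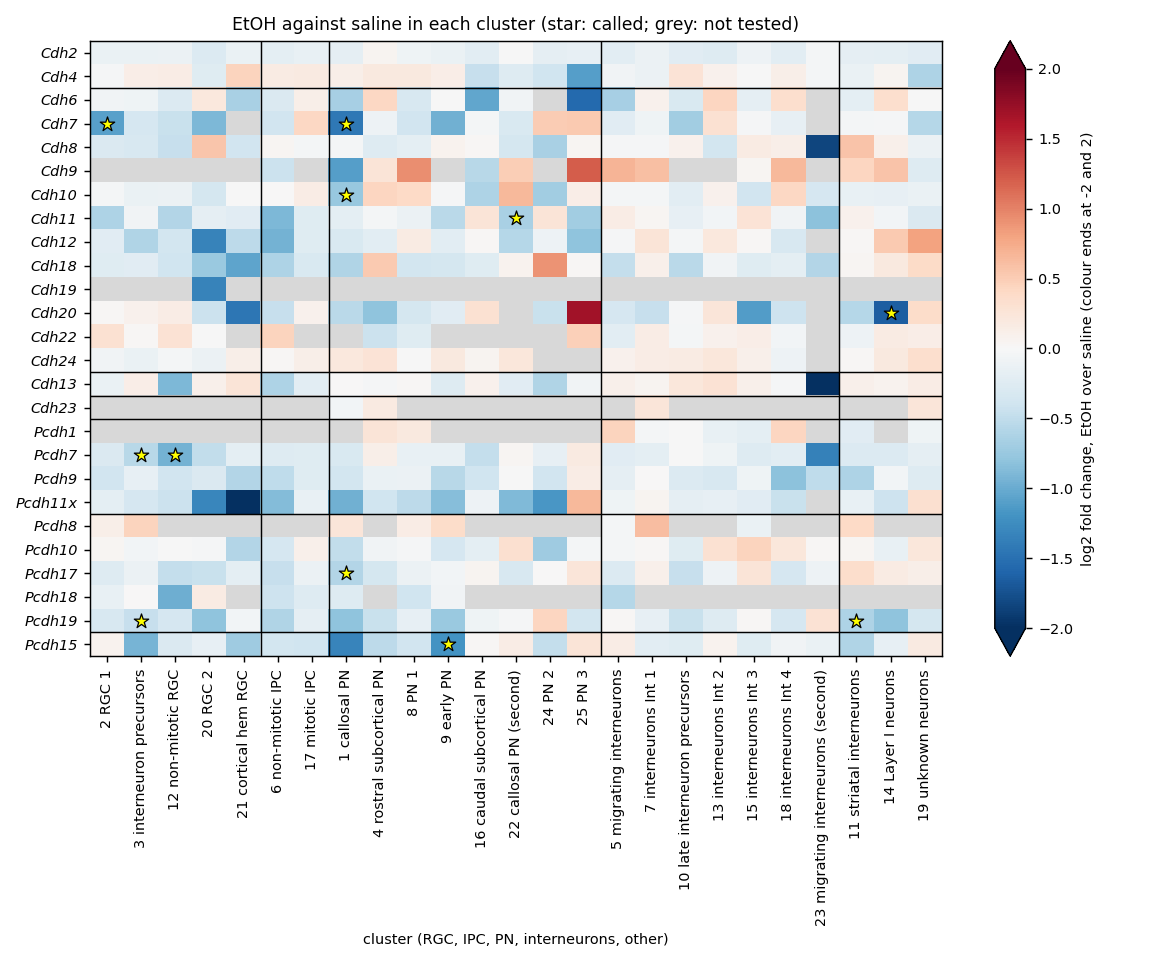
Colour gives the log2 fold change of EtOH over saline (blue lower, red higher) for the 26 tested genes (rows) in 25 clusters (columns), stars mark the 11 calls and grey pairs were not tested. All 11 stars are blue, and the rows of Cdh2, Pcdh7, Pcdh9, Pcdh11x and Pcdh19 are mostly blue while that of Cdh24 is mostly pale red.

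By structure, and beside 0.35% of all pairs called lower, 0 of 50 type I pairs were called, and their median log2 fold change was -0.12. Type II cadherins had 5 of 247 pairs called lower with a median of -0.07. Delta-1 protocadherins had 2 of 84 called lower with a median of -0.23, delta-2 had 3 of 94 with a median of -0.12, and Pcdh15 had 1 of 25 with a median of -0.24. The 25 pairs of Cdh13 and the 4 of Cdh23 held 0 calls, with medians of 0.03 and 0.21. Each of these groups had 0 pairs called higher by edgeR or by DESeq2, and at an unadjusted p under 0.05, beside 7.83% of all pairs lower and 9.54% higher, type I had 10 pairs lower and 2 higher, type II 33 and 6, Cdh13 3 and 1, delta-1 28 and 0, delta-2 17 and 5, Pcdh15 4 and 0, and Cdh23 0 and 0.

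The most calls were in Cluster 1 callosal PN, where Cdh10, Pcdh17 and Cdh7 fell, 3 of 23 genes tested there, beside 1.69% of all genes called lower in Cluster 1. Cdh10 (GRCm38, chr15:18818947-19014236, plus strand) is a type II cadherin of cortical and other brain neurons. In Cluster 1, its level was 294 CPM in S1-1, 272 in S1-2, 408 in S2-1, 336 in S2-2 and 218 in S2-4. In the EtOH embryos it ran from 174 through a median of 185 to 203 CPM, so the groups did not overlap. The log2 fold change was -0.75 ± 0.14 (SE), a fold of 0.594, with an edgeR adjusted p of 0.0270, and with batch as a block it was 0.0343. In nuclei thinned to 2000 UMIs the log2 fold change was -0.44 and the call was lost (adjusted p = 0.257). In the other callosal cluster, Cluster 22, the log2 fold change of Cdh10 had the other sign, at 0.65, without a call.

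Pcdh17 (chr14:84443563-84539002, plus strand), a delta-2 protocadherin, was at 98.7 CPM in S1-1, 85.1 in S1-2, 98.3 in S2-1, 100.2 in S2-2 and 73.5 in S2-4 of Cluster 1. The EtOH embryos ran from 47.0 through a median of 64.5 to 76.5 CPM, and only S2-4 lay within their range. EtOH differed from saline by a log2 fold change of -0.58 ± 0.12 (SE, edgeR adjusted p = 0.0252), and 0.0202 was the adjusted p with batch as a block. With counts summed per dam, the call was lost.

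Cdh7 (chr1:109982431-110140157, plus strand), a type II cadherin, was low in Cluster 1, with 13 to 199 UMIs per embryo. It was at 29.9 CPM in S1-1, 24.6 in S1-2, 48.9 in S2-1, 56.1 in S2-2 and 21.2 in S2-4, against 7.45 through a median of 12.2 to 24.9 CPM under EtOH. E1-2 at 24.9 CPM overlapped the saline embryos S1-2 and S2-4. Its log2 fold change was -1.43 ± 0.35 (SE, edgeR adjusted p = 0.0499), and with batch as a block the call was lost (adjusted p = 0.0670). It was -0.73 within batch 1 and -1.82 within batch 2.

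The starts of Cdh10 and Pcdh17, which fell together in Cluster 1, and of Pcdh7 and Pcdh19, which fell together in Cluster 3, are printed from RefSeq on GRCm38.p6 (250 bases before to 50 after the annotated start). Capitals mark E-boxes, CANNTG, the letters bound by proneural and other basic helix-loop-helix factors. The motif reads alike on both strands, and overlapping matches are counted. Of 32851 such windows of all genes in the mouse genome, 72.3% hold at least 1 E-box and 2.10% hold 5 or more. The Cdh10 window (chr15:18820079-18820378, plus strand) held 5, the Pcdh17 window (chr14:84443313-84443612, plus strand) 0, and those of Pcdh7 (chr5:57717831-57718130, plus strand) and Pcdh19 (chrX:133688944-133689243, minus strand) 1 each. Cdh7, which also fell in Cluster 1, has 3 annotated starts, whose windows held 1, 1 and 3 E-boxes and are not printed. Windows were available for 21 of the Cdh and Pcdh genes. The Cdh10 window was 37.7% G and C, and the genome shares were not matched for base content. It lies within the GENCODE gene, and matches are letters only, not shown to be bound.
Cdh10: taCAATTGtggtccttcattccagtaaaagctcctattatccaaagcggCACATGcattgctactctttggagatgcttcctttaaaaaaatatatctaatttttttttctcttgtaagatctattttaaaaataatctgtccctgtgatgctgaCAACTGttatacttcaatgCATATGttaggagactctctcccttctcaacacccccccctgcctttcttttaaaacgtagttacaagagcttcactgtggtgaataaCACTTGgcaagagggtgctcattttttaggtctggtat
Pcdh17: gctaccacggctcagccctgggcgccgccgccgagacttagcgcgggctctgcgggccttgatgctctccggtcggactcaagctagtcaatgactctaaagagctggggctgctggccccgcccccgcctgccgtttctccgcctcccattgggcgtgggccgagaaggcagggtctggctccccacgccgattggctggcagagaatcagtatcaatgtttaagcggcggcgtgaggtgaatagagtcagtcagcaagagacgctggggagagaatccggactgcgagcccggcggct
Pcdh7: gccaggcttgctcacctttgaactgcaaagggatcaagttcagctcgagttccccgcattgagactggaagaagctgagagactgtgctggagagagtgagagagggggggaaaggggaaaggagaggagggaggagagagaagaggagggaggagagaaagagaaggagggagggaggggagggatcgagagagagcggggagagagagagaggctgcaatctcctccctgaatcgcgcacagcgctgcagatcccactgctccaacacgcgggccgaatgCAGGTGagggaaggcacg
Pcdh19: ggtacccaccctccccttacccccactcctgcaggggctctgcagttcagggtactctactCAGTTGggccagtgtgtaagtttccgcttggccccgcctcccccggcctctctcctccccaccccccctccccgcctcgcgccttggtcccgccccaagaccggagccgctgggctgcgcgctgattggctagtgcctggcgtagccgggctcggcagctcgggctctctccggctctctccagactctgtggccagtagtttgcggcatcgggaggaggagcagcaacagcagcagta

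Cdh7 also fell in Cluster 2 RGC 1, where 1 of 22 tested genes was called beside 0.363% of all genes called lower. With 9 to 141 UMIs per embryo, it was at 19.3 CPM in S1-1, 16.3 in S1-2, 24.3 in S2-1, 19.3 in S2-2 and 14.5 in S2-4. The EtOH embryos ran from 6.44 through a median of 8.88 to 11.05 CPM, below every saline embryo. The log2 fold change was -1.09 ± 0.17 (SE, fold of 0.471, edgeR adjusted p = 0.0389), with 0.0463 as the adjusted p under the batch block. Within batches, it was -1.22 in batch 1 and -1.04 in batch 2. The call was lost with counts summed per dam and in limma voom with dams as a random effect. Microglia markers summed to 9.53 to 26.2 CPM in saline and 23.8 to 38.7 CPM in EtOH embryos in Cluster 2, and their part in the result was not tested. Over the 23 clusters where Cdh7 was tested, 19 log2 fold changes were below 0.

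In Cluster 3 interneuron precursors, which the study counts among RGCs, Pcdh7 and Pcdh19 fell, 2 of 22 tested genes, beside 0.776% of all genes called lower. Pcdh7 (chr5:57717967-58133230, plus strand), a delta-1 protocadherin, was at 539 CPM in S1-1, 665 in S1-2, 626 in S2-1, 458 in S2-2 and 476 in S2-4, against 313 through a median of 406 to 464 CPM under EtOH. Only S2-2 lay within the EtOH range. The log2 fold change was -0.55 ± 0.13 (SE, edgeR adjusted p = 0.0485), and 0.0735 was the adjusted p with batch as a block, so this call was lost.

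Pcdh19 (chrX:133582860-133688987, minus strand) was at 122 CPM in S1-1, 101 in S1-2, 112 in S2-1, 145 in S2-2 and 103 in S2-4 of Cluster 3. The EtOH embryos ran from 74.3 through a median of 85.0 to 107 CPM, and E2-4 at 107 CPM lay above S1-2 and S2-4. EtOH over saline gave a log2 fold change of -0.46 ± 0.11 (SE, edgeR adjusted p = 0.0406), and with batch as a block the adjusted p was 0.0580, past the threshold.

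Pcdh7 fell further in Cluster 12 non-mitotic RGCs, 1 of 21 tested genes beside 0.305% of all genes called lower. It was at 464 CPM in S1-1, 347 in S1-2, 397 in S2-1, 377 in S2-2 and 257 in S2-4, and ran from 143 through a median of 203 to 241 CPM under EtOH, below every saline embryo. Its log2 fold change was -0.94 ± 0.17 (SE, fold of 0.520, edgeR adjusted p = 0.0419), at -1.09 within batch 1 and -0.84 within batch 2. With batch as a block, the adjusted p was 0.0604. Over the 25 clusters, Pcdh7 was below 0 in 22, and in 9 of these the unadjusted p was under 0.05.

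Pcdh19 also fell in Cluster 11 striatal interneurons, 1 of 23 tested genes beside 0.383% of all genes called lower. It was at 84.9 CPM in S1-1, 87.6 in S1-2, 105 in S2-1, 126 in S2-2 and 94.6 in S2-4, and from 45.9 through a median of 64.3 to 93.1 CPM under EtOH, where E2-3 alone lay within the saline range. This was a log2 fold change of -0.61 ± 0.13 (SE, edgeR adjusted p = 0.0432), and 0.0182 was the adjusted p under the batch block. With counts summed per dam, the call was lost. Microglia markers summed to 32.9 to 85.1 CPM in saline and 75.4 to 115 CPM in EtOH embryos of Cluster 11, and their part was not tested. In Cluster 2, where Pcdh19 had its highest level, it was not called. Over 25 clusters, 21 of its log2 fold changes were below 0 and 7 had an unadjusted p under 0.05.

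Among further calls, Cdh11 (chr8:102632095-102785642, minus strand), a type II cadherin known as osteoblast cadherin and present in brain, fell in Cluster 22 callosal PN, 1 of 19 tested genes beside 0.0979% of all genes called lower. It was at 359 CPM in S1-1, 279 in S1-2, 394 in S2-1, 332 in S2-2 and 419 in S2-4, and from 195 through a median of 212 to 338 CPM under EtOH. E1-1 at 338 CPM stood apart from the next EtOH embryo at 245 CPM and within the saline range. The log2 fold change was -0.65 ± 0.13 (SE, edgeR adjusted p = 0.0279), at -0.36 in batch 1 and -0.83 in batch 2, and the batch block gave an adjusted p of 0.0521.

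Pcdh15 (chr10:73099342-74649737, plus strand) fell in Cluster 9 early PN, 1 of 21 tested genes beside 0.799% of all genes called lower. It was at 115 CPM in S1-1, 122 in S1-2, 150 in S2-1, 223 in S2-2 and 81.9 in S2-4, and from 41.3 through a median of 62.6 to 73.2 CPM under EtOH, with no overlap. Its log2 fold change was -1.19 ± 0.25 (SE, fold of 0.437, edgeR adjusted p = 0.0486), and 0.0736 was the adjusted p with batch as a block. Thalamic markers summed to 61.5 to 157 CPM in saline and 20.5 to 79.9 CPM in EtOH embryos of Cluster 9, and their part was not tested. This was among the clusters where Pcdh15 was low, since it was at 1696 CPM in Cluster 7 Int 1, where it was not called.

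Cdh20 (chr1:104768529-104995481, plus strand), a type II cadherin, fell in Cluster 14 Layer I neurons, 1 of 21 tested genes beside 0.0554% of all genes called lower. It had 2 to 73 UMIs per embryo there, with 19.6 CPM in S1-1, 34.5 in S1-2, 33.2 in S2-1, 15.4 in S2-2 and 44.5 in S2-4. The EtOH embryos ran from 5.58 through a median of 8.43 to 15.02 CPM, just below S2-2. EtOH embryos differed by a log2 fold change of -1.66 ± 0.33 (SE, fold of 0.317, edgeR adjusted p = 0.0481), and the batch block gave an adjusted p of 0.0745.

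**Figure D3:**
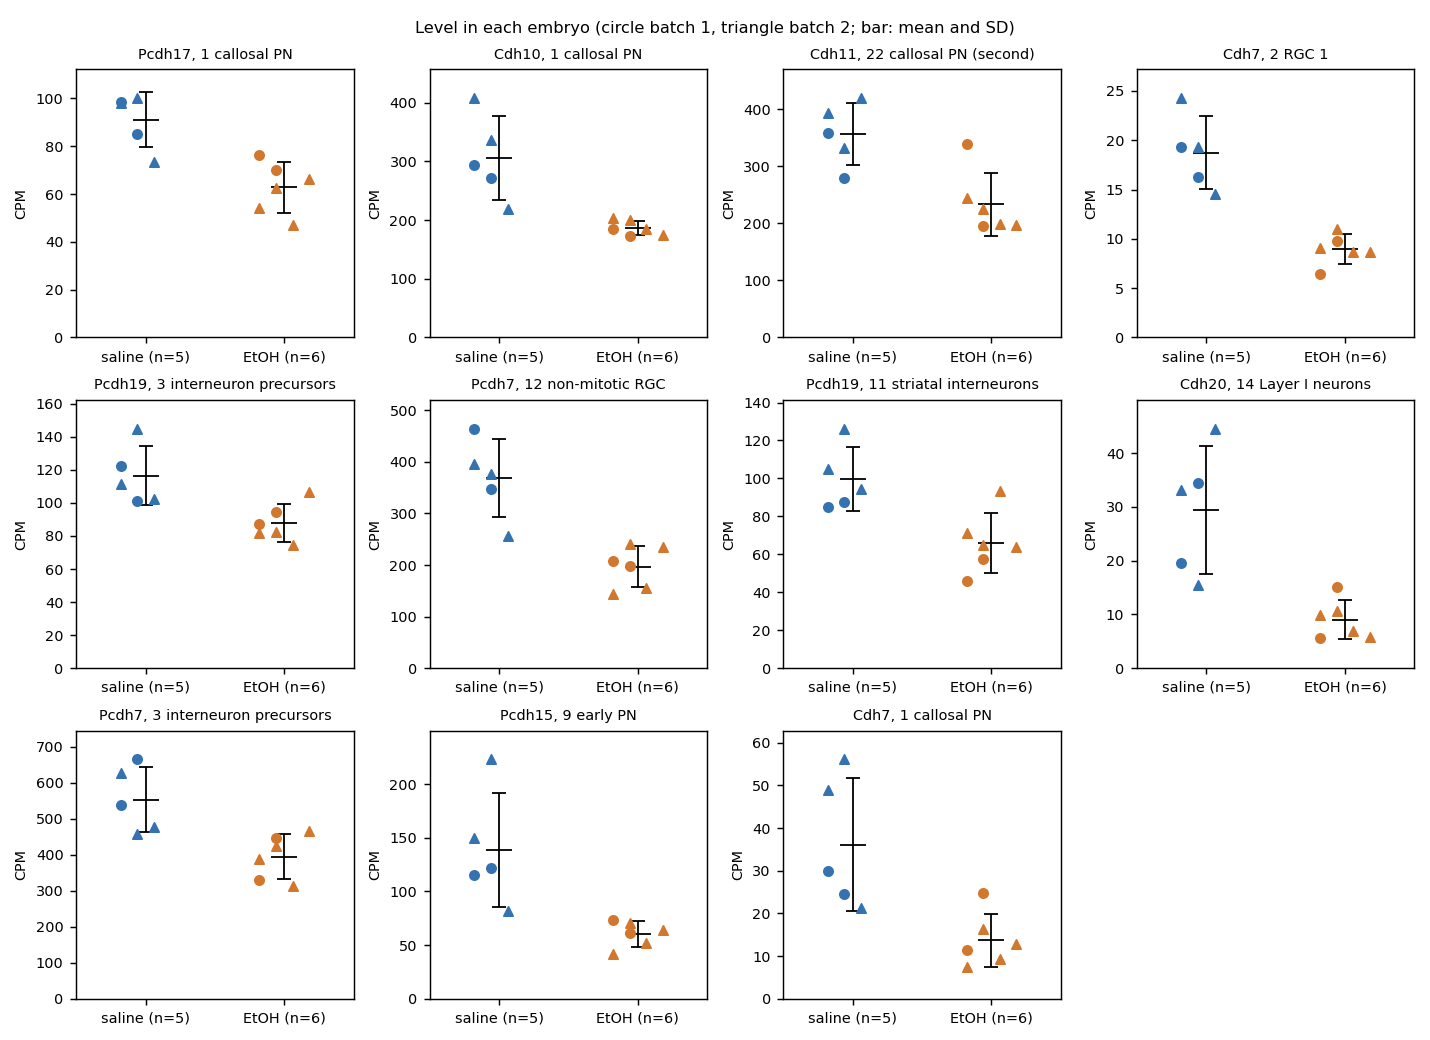
Each panel gives the level in CPM (y axis from 0) of 1 gene in 1 cluster in each of 5 saline (blue) and 6 EtOH (orange) embryos, with circles for batch 1, triangles for batch 2 and bars for the mean and SD. The groups do not overlap for Cdh10 in Cluster 1, Cdh7 in Cluster 2, Pcdh7 in Cluster 12, Pcdh15 in Cluster 9 and Cdh20 in Cluster 14, and they overlap in the other 6 panels.

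Per the study's methods, Cell Ranger was run with its default settings, and how these treated strand and introns is not given in the sources used here. Genes on the other strand overlap Pcdh7, Pcdh15, Pcdh17, Pcdh19 and Cdh20 in the annotation, and none overlaps Cdh7, Cdh10 or Cdh11, while genes on the same strand overlap Pcdh7, Pcdh15, Cdh11 and Cdh20. Levels of genes with such overlaps are therefore less certain.

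The calls lay close to the threshold and depended on single embryos. All 11 log2 fold changes were below 0 in batch 1 and in batch 2 and with each embryo left out, but each pair stayed called in only 1 to 5 of the 11 fits that left out 1 embryo. With batch as a block, 4 of the 11 were called (Cdh10 and Pcdh17 in Cluster 1, Cdh7 in Cluster 2 and Pcdh19 in Cluster 11), and 3 further pairs were, Cdh6 lower in Cluster 1 (log2 fold change -0.60, adjusted p = 0.0383), Pcdh7 lower in Cluster 23 (-1.15, 0.0229) and Cdh9 higher in Cluster 5 (0.79, 0.0421). With counts summed per dam, 7 of the 11 were called and those 3 further pairs were not, and the 4 lost were Cdh11 in Cluster 22, Cdh7 in Cluster 2, Pcdh17 in Cluster 1 and Pcdh19 in Cluster 11. The block thus gave 6 pairs lower and 1 higher by edgeR, beside 0.192% and 0.237% of all pairs. In nuclei thinned to 2000 UMIs, 4 of the 9 pairs that could be tested were called, with both Pcdh7 pairs, Pcdh15 in Cluster 9 and Pcdh17 in Cluster 1 among them. Without S2-4, 64 pairs were called, 63 lower and 1 higher, beside 2.61% and 6.17% of all pairs, so calls of all genes also rose. Batch 1 alone gave 57 lower and 5 higher (1.49% and 2.39% of all pairs), the fit without the filter on low counts 57 and 2 (1.09% and 0.976%), and sums per dam 19 and 0 (0.295% and 0.426%). S2-4 was the lowest saline embryo in 6 of the 11 pairs and also had the lowest median depth of the saline embryos, and the part of depth in the result was not tested beyond the thinned fit.

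**Figure D4:**
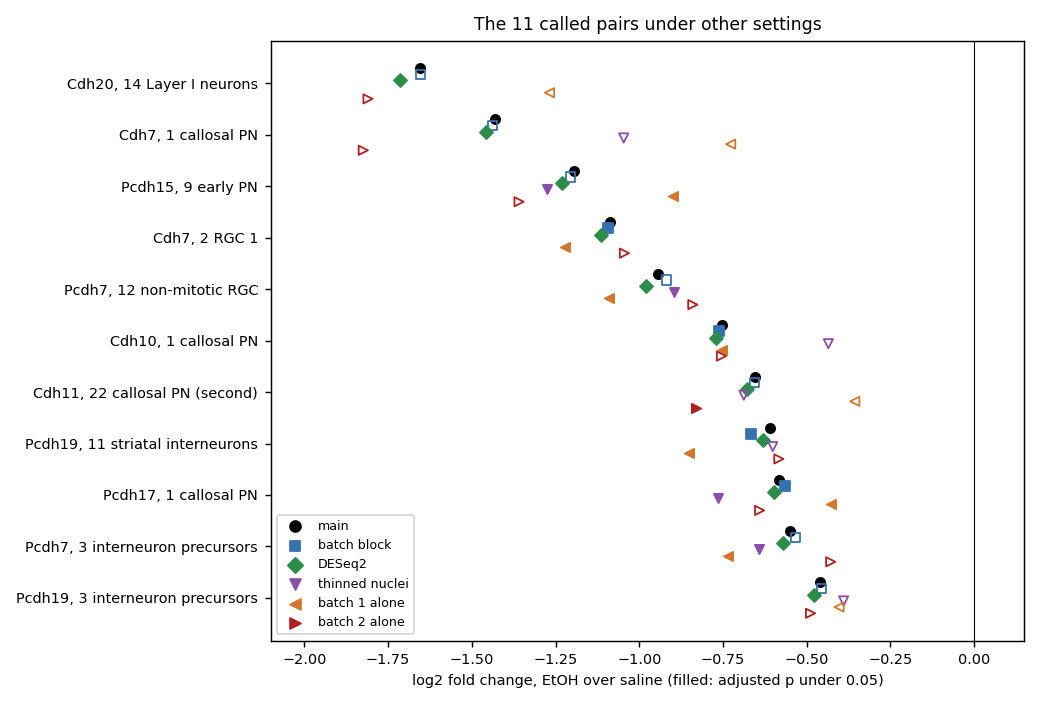
The x axis gives the log2 fold change of EtOH over saline for the 11 called pairs (rows) by edgeR as reported, with batch as a block, by DESeq2, in nuclei thinned to 2000 UMIs and within each batch, and filled symbols have an adjusted p under 0.05. All symbols lie below 0, from -1.82 for Cdh7 in Cluster 1 in batch 2 to -0.36 for Cdh11 in batch 1, and those of batch 2 alone are filled for Cdh11 only.

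Several genes at high levels were not called in any cluster in the edgeR fit as reported. Cdh2 was below 0 in 24 of 25 clusters, from -0.28 to 0.05, with a smallest adjusted p of 0.104. Pcdh9 was below 0 in 23 of 25 clusters, from -0.81 to 0.14, with 12 at an unadjusted p under 0.05 and a smallest adjusted p of 0.0742. Pcdh11x was below 0 in 21 of 24 clusters, from -2.19 to 0.65, with a smallest adjusted p of 0.104. In the edgeR fit as reported these genes had 0 calls, while DESeq2 called Pcdh9 lower in 6 clusters, Pcdh11x in 3 and Cdh2 in none. Other edgeR settings did call them. Batch 1 alone gave Pcdh9 lower in 9 clusters, Pcdh11x in 2 and Cdh2 in 2, beside 1.49% of all pairs called lower.

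Cdh24 was above 0 in 16 of 22 clusters and Cdh9 in 10 of 14, with smallest edgeR adjusted p-values of 0.117 and 0.0874. Among low genes, Pcdh8 was above 0 in 7 of 9 and Cdh23 in 3 of 4. The Cdh4 values were split, with 12 of 25 clusters below 0, a range of -1.10 to 0.44 and a smallest adjusted p of 0.108. Cdh13 was likewise split, with 11 of 25 below 0. Its range reached -2.77 in Cluster 23, where the edgeR adjusted p was 0.136, while DESeq2 called it lower there (-2.79, adjusted p = 0.000103) and in Cluster 12 (-0.91, adjusted p = 0.0404). Cdh6, Cdh8, Cdh12 and Cdh18 were below 0 in 16 of 23, 15 of 25, 16 of 24 and 17 of 25 clusters, with smallest adjusted p-values of 0.0532, 0.0971, 0.121 and 0.0951. Cdh22 (7 of 17 below 0) and Pcdh10 (15 of 25) had smallest edgeR adjusted p-values of 0.356 and 0.0548. DESeq2 called Cdh6, Cdh18 and Pcdh10 lower in Cluster 1, Cdh8 lower in Cluster 23 and Cdh12 lower in Cluster 6. By edgeR, Cdh12 was called higher in Cluster 19 in batch 2 alone (1.37, adjusted p = 0.00595) and in thinned nuclei (1.03, adjusted p = 0.0358). Batch 1 alone gave Cdh4 higher in Cluster 10, Cdh9 in Cluster 11, Cdh13 in Cluster 9, Cdh20 in Cluster 16 and Cdh23 in Cluster 2. There, 2.39% of all pairs were called higher. It also gave Cdh4 and Cdh13 lower in 2 clusters each and Cdh20 in 3.

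When all nuclei of an embryo were summed, 30 of the 34 genes passed the filter and 4 were called lower, beside 3.55% of the 18138 genes called lower. They were Pcdh18, Cdh5, Pcdh19 and Pcdh20. By edgeR and by DESeq2, 0 were called higher, beside 8.55% of all genes by edgeR, and Cdh9 alone was above 0 at an unadjusted p under 0.05 (log2 fold change 0.32, adjusted p = 0.110). The median log2 fold change was -0.14 over the 30 and 0.01 over all genes. In summed nuclei, fewer cells of a type and less RNA per cell cannot be told apart. RGCs made up 20.97 to 31.2% of nuclei in saline embryos and 17.2 to 23.5% in EtOH embryos, and PN 18.3 to 33.6% and 29.3 to 44.9%. Of the RGC and proliferation markers in summed nuclei, Mki67 fell, with a log2 fold change of -0.63 (adjusted p = 0.00236), and so did Nes, with -0.44 (adjusted p = 0.0216), by edgeR. Hes1, Hes5, Ednrb and Top2a had 0.14 (adjusted p = 0.627), -0.13 (adjusted p = 0.556), -0.23 (adjusted p = 0.147) and -0.19 (adjusted p = 0.266). The part of these in the summed result was not tested.

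Pcdh18, a delta-2 protocadherin with its highest levels in RGC clusters, was at 7.42 CPM in S1-1, 6.72 in S1-2, 8.06 in S2-1, 10.7 in S2-2 and 7.49 in S2-4. The EtOH embryos ran from 5.75 through a median of 6.27 to 7.07 CPM, and S1-2 lay within their range. The log2 fold change was -0.42 ± 0.10 (SE, edgeR adjusted p = 0.0205), and it stayed called in 9 of 11 fits without 1 embryo. The call was lost in thinned nuclei (adjusted p = 0.120), with counts summed per dam (0.092), in batch 1 alone (0.131) and in batch 2 alone (0.191). Pcdh19 was at 135 CPM in S1-1, 126 in S1-2, 135 in S2-1, 196 in S2-2 and 127 in S2-4, against 100.3 through a median of 123 to 131 CPM, and 3 of the 6 EtOH embryos lay within the saline range. Its log2 fold change was -0.34 ± 0.11 (SE, edgeR adjusted p = 0.0423), and the call was lost with batch as a block (adjusted p = 0.0541). It stayed called in 1 of 11 fits without 1 embryo, and without S2-2 its log2 fold change was -0.22. Cdh20 also had an adjusted p of 0.0433 in summed nuclei, but its fold of 0.803 missed the call.

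Cdh5 and Pcdh20 rested on few UMIs, 6 to 116 and 6 to 105 per embryo. Cdh5 was at 1.40 CPM in S1-1, 1.02 in S1-2, 1.26 in S2-1, 2.09 in S2-2 and 1.65 in S2-4, and from 0.426 through a median of 0.662 to 1.28 CPM under EtOH, so the groups overlapped. Its log2 fold change was -0.90 ± 0.27 (SE, edgeR adjusted p = 0.0326), and it stayed called in 3 of 11 fits without 1 embryo. The 5 endothelial markers, of which 0 were at 0 UMIs, summed to 9.33 to 15.9 CPM in saline and 9.38 to 15.1 CPM in EtOH embryos, and 0 of the 5 were called, with 2 (Cd93 and Flt1) lower and 0 higher at an unadjusted p under 0.05. Their part in the Cdh5 result was not tested. Pcdh20, a delta-1 protocadherin, was at 1.26 CPM in S1-1, 0.963 in S1-2, 0.806 in S2-1, 1.02 in S2-2 and 0.834 in S2-4, against 0.341 through 0.640 to 0.972 CPM, with 1 EtOH embryo within the saline range and a log2 fold change of -0.74 ± 0.24 (SE, edgeR adjusted p = 0.0433). It stayed called in 2 of 11 such fits.

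Markers of other cell types were counted in the summed nuclei. The 6 meningeal fibroblast markers summed to 8.38 to 32.6 CPM in saline and 8.94 to 13.6 CPM in EtOH embryos. Of the 6, only Col1a2 was called lower, while Cxcl12 was above 0 without a call (log2 fold change 0.20). The 5 pericyte markers summed to 8.27 to 12.97 and 8.63 to 11.5 CPM, with 0 of 4 tested called. The 5 microglia markers summed to 7.92 to 17.7 CPM in saline and 14.97 to 20.03 CPM in EtOH embryos. Of the 3 tested by edgeR, only P2ry12 was called, and it was higher. Csf1r (log2 fold change 0.56, adjusted p = 0.172) and Ly86 (-0.31, adjusted p = 0.501) were not called. The 4 oligodendrocyte precursor markers summed to 2.83 to 4.95 and 2.20 to 4.15 CPM. The 3 thalamic markers summed to 179 to 478 and 156 to 446 CPM, with 0 of 2 tested called. Within clusters with calls, meningeal markers summed to 6.22 to 34.96 CPM under saline and 2.62 to 11.99 CPM under EtOH in Cluster 1, and microglia markers to 6.88 to 22.5 and 17.1 to 29.8 CPM in Cluster 3. In Cluster 12, microglia markers summed to 3.79 to 28.1 and 18.4 to 35.6 CPM. Every one of these lists had 0 markers without UMIs in summed nuclei, and their part in the results was not tested.

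**Figure D5:**
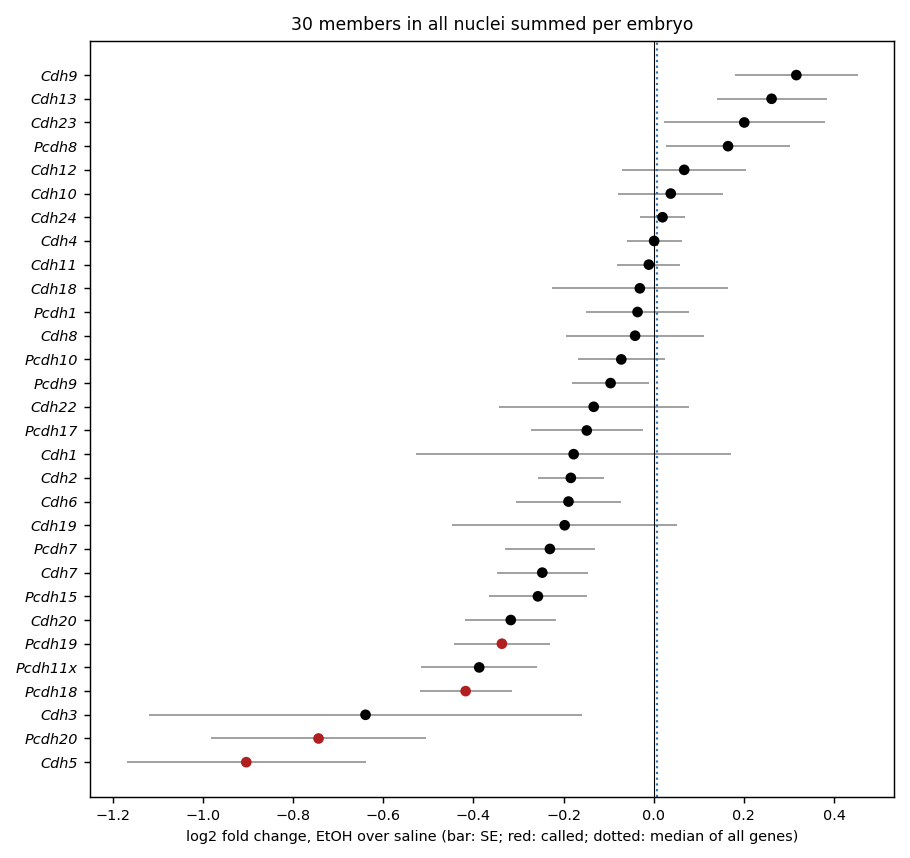
Points give the log2 fold change of EtOH over saline with its SE (bars) for the 30 genes tested in all nuclei summed per embryo (rows), red points are called and the dotted line is the median of all genes. The 4 red points run from -0.90 for Cdh5 to -0.34 for Pcdh19, and 22 of the 30 points lie below 0.

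Whether the EtOH effect differed between major cell types was tested in 1 model with the embryo as a block, over nuclei summed per embryo and type. By edgeR, 0 of 29 genes were called between PN and RGCs, between Int and RGCs or between PN and Int, beside 0.115%, 0.255% and 0.00607% of all genes at an adjusted p under 0.05. At an unadjusted p under 0.05 there were 4, 4 and 2 of the 29, beside 10.9%, 11% and 4.79% of all genes, and limma voom called 0 in each. The smallest adjusted p was 0.188, for Cdh24, whose EtOH effect was 0.29 ± 0.09 (SE) higher on the log2 scale in PN than in RGCs. The EtOH effect on Pcdh7 was 0.33 ± 0.15 higher in PN than in RGCs (adjusted p = 0.429) and 0.31 ± 0.15 higher in Int than in RGCs (adjusted p = 0.441). The calls of Pcdh7 in RGC clusters are therefore not shown to be particular to RGCs.

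Partners and relatives of these genes were counted in the same way, beside 0.35% of all pairs called lower and 0.442% higher in clusters and 3.55% and 8.55% of all genes in summed nuclei. Of 11 catenins and junction adaptors, 246 pairs with clusters were tested, 1 was called lower (Pkp4 in Cluster 1) and 1 higher (Ctnna3 in Cluster 18), with a median log2 fold change of -0.01. In summed nuclei, 2 of the 11 were called. Pkp4, a plakophilin of the p120-catenin family, fell by 0.33 ± 0.06 (SE) on the log2 scale (edgeR adjusted p = 0.0144). Ctnna3, alpha-T-catenin, rose by 0.90 ± 0.23 (SE, adjusted p = 0.0261). Ctnnb1, beta-catenin, was not called (0.05, adjusted p = 0.379). The 9 WAVE complex genes had 0 of 222 pairs called and a median of -0.04. Large cadherins had 4 of 166 pairs called lower and 0 higher, against 11 of 529 for the Cdh and Pcdh genes, Fat1 in Clusters 1 and 8 and Fat4 in Clusters 9 and 11, with a median of -0.19. In summed nuclei Fat1, an atypical cadherin of RGC junctions, fell by 0.52 ± 0.09 (SE) on the log2 scale (edgeR adjusted p = 0.0138). These medians of pairs stand beside 0.01 for all pairs. In summed nuclei the median log2 fold change was -0.10 for catenins and junction adaptors, -0.13 for WAVE complex genes and -0.13 for large cadherins. It was -0.14 for the Cdh and Pcdh genes and 0.01 for all genes. A median shift of about this size in summed nuclei was thus not particular to the Cdh and Pcdh genes.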

How the data were processed

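The cadherin genes and lists used here were chosen with earlier results of these data known. Nuclei of mouse cortex at embryonic day 14 were sequenced with the Single Cell 3' v3.1 kit, 1 library per embryo. Per the labels and the study's methods, the authors made the UMI counts with Cell Ranger at default settings on mm10 and clustered nuclei with Seurat. The study removed 1 saline sample, which it does not name, because its cells were spread differently over the clusters. The deposited counts and cluster numbers were used as given, 1 listed saline sample was not used here, and doublets were not called. How the Cell Ranger settings treated introns and strand is not given in the sources used here.

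UMIs were summed per embryo over the nuclei of each of 25 clusters, keeping sums of at least 10 nuclei and clusters with at least 2 embryos per group. Each cluster, and all nuclei summed, was tested over all genes with edgeR 4.0.16 (R 4.3.3, TMM, filterByExpr, robust quasi-likelihood fit, treatment only). Calls needed a Benjamini-Hochberg adjusted p under 0.05 with a fold under 0.8 or over its inverse. SE is the absolute log2 fold change over the square root of F. The interaction model used the embryo as a block. Alternatives were DESeq2 1.42.0, limma 3.58.1 voom, batch as a block, sums per dam, each batch alone, nuclei thinned to 2000 UMIs, other filters and size factors, and each embryo left out. Thinning dropped nuclei with fewer than 2000 UMIs, so it changed which nuclei were counted as well as their depth. Leaving out nuclei with shared barcodes was chosen after seeing the data. The sample titles state the batches, which pair S1 with E1 and S2 with E2, and do not say dam. S1, S2, E1 and E2 were taken as the dams. The difference between S1 and S2 correlated with that between E1 and E2 at only r = -0.03 over 18214 genes. Littermates differed by more than counting error, and most in S2. The chi-square per gene was 48.7 to 89.7 between S2 embryos and 4.33 to 12.3 between littermates of S1, E1 and E2. The fits were tested on simulated counts of independent embryos, with no dam or batch effect. That test cannot show how littermates affect the p-values. Genes were named if called, if at 100 CPM or more in a cluster, or as endothelial members, and others named beside them were chosen after their values were seen. The total per embryo was 14078316 to 83061737 UMIs, and the SD between embryos includes counting error.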

Additional observations from a re-analysis of the deposited data

Results flagged for a closer look

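Of 30 groups of embryos examined by Dixon's test, 2 held an embryo that stood apart, where chance gives about 1 in 20 for independent groups. These groups share embryos, so that rate is only a rough guide, and 2 of 30 is not shown to exceed it. Cdh11 in Cluster 22 callosal PN was at 338 CPM in E1-1, against 245 CPM in the next of the 6 EtOH embryos, a gap of 0.652 of the group's range. Pcdh19 in all nuclei summed was at 196 CPM in S2-2, against 135 CPM in the next of the 5 saline embryos, a gap of 0.869 of the range. Without S2-2, the log2 fold change of Pcdh19 moved from -0.34 to -0.22 and was not called. S2-2 was also the saline embryo with the largest share of RGCs, 31.2% of nuclei, and the part of this in the Pcdh19 value was not tested.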

How the results depend on the processing

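The 11 pairs called in clusters remained called with RLE size factors, by DESeq2 and with at least 1 or 30 nuclei per embryo, and 0 of the 11 changed direction in any alternative. Without the filter on low counts Pcdh7 in Cluster 3 was lost, and without nuclei of shared barcodes Pcdh7 in Cluster 3, Pcdh15 in Cluster 9 and Pcdh19 in Cluster 11 were. The count of calls rose to 34 by DESeq2, 59 without the filter on low counts, 19 with counts summed per dam and 62 in batch 1 alone. Per dam, 7 of the 11 stayed called, and with litters as a random effect in voom 7 did too, without Cdh7 in Clusters 1 and 2, Cdh20 in Cluster 14 and Pcdh15 in Cluster 9. The count went down to 7 with batch as a replicate block, 3 in batch 2 alone and 5 with p-values adjusted over all clusters together. Without 1 embryo it ran from 0 to 64. It was 0 without S1-1, E2-1 or E2-2, 1 without S1-2 or E2-4, 2 without S2-1 or E2-3 and 3 without E1-1 or E1-2. It was 5 without S2-2 and 64 without S2-4. Shares of all pairs are not given for batch 2 alone, the joint adjustment or embryos left out other than S2-4. Whether those counts are particular to these genes was not tested. Pairs called higher, 0 as reported, numbered 2 without the filter, 1 with the block, 1 in thinned nuclei, 5 in batch 1, 1 in batch 2 and 0 to 1 without 1 embryo (1 without S2-4). In summed nuclei, the count of 4 calls became 7 by DESeq2, 11 in batch 1, 2 by voom with litters as a random effect, 1 in thinned nuclei (Pcdh11x), and 0 in batch 2 or per dam. DESeq2 kept all 4, voom kept 2 (Pcdh18 and Cdh5), and batch 1, batch 2, the sums per dam and the thinned nuclei, where 3 could be tested, kept 0. The count there ran from 0 without S2-1 to 7 without S2-4, with 1 to 3 without each other embryo. For summed nuclei, the share of all genes called is given only for the fit as reported. Whether these changes in count are particular to the Cdh and Pcdh genes was not tested. Between cell types, 1 gene was called for Int minus RGC in thinned nuclei (Cdh12), and for PN minus RGC the count ran from 0 to 1, with Cdh24 called without S2-4. For the comparisons between cell types, too, the share of all genes called is given only for the fit as reported. Whether the Cdh12 and Cdh24 calls are particular to these genes was not tested. Apart from the calls given with the results, the batch block changed no further call among the pairs reported. Of 20 genes at 100 CPM or more, 16 kept their top cluster in saline embryos only (not Cdh4, Cdh11, Cdh20 and Pcdh9) and 17 in thinned nuclei (not Cdh11, Cdh22 and Pcdh17). The cause of these changes was not tested. With 2 dams per group, batch effects and dam effects cannot be told apart, and genes of few UMIs, such as Cdh5, Pcdh20 and Cdh20 in Cluster 14, carry the widest counting error.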
